A study of Mus musculus with 6 samples.

Results

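The genes of the constitutive proteasome were examined in purified Paneth cells (PCs), which secrete antimicrobial proteins into the crypts of the small intestine, after TNF or PBS injection. They were chosen by name, as the protein-coding genes whose symbol is *Psma*, *Psmb*, *Psmc*, *Psmd*, *Psme*, *Psmf* or *Psmg* followed by a number, without the interferon-inducible subunits *Psmb8*, *Psmb9* and *Psmb10*. This gave 45 genes of the 55414 in the count table, of which 21627 were protein-coding. By their known place in the complex, 16 encode the 20S core, 9 the base and 8 the lid of the 19S regulatory particle, 7 assembly chaperones, 3 the PA28 activators and 2 other regulators. All mice were C57BL/6J with the genotype IFNAR1 KO, a deletion of the type I interferon receptor subunit gene *Ifnar1* that PBS controls and TNF-injected mice shared. PCs were sorted from the small intestine 15 h after injection, with 3 libraries per group and 1 mouse per library. The labels give no age, sex, TNF dose, route or sort gate, nor the part of *Ifnar1* that was deleted. *Ifnar1* had between 61 and 159 counts in every library, and since a remaining transcript can still be counted, this does not check the genotype.

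The proteasome is the barrel-shaped protease that degrades most ubiquitin-tagged proteins of the cytosol and nucleus. Its 20S core is built of outer rings of α subunits (*Psma*), which gate the entry, and inner rings of β subunits (*Psmb*), 3 of which (*Psmb5*, *Psmb6*, *Psmb7*) carry the proteolytic sites. The 19S particle binds at the end of the barrel. Its base unfolds the substrate with a ring of ATPases, and its lid removes the ubiquitin. PA28 caps the same end without ATP. In response to interferons and other inflammatory signals, the catalytic subunits can be exchanged for the inducible ones, which gives the immunoproteasome. When proteasome activity falls short, the transcription factor encoded by *Nfe2l1* raises the expression of many of these genes through antioxidant response elements (AREs) in their promoters.

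Because such elements are the best-known shared feature of these genes, the 250 bases before the transcription start of each gene were searched for the ARE letters TGACNNNGC on both strands (genome build GRCm39, GENCODE start sites). A match was present in 7 of the 45 promoters (15.6%), those of *Psmb5*, *Psmb6*, *Psmc6*, *Psmd7*, *Psmd9*, *Psmd12* and *Psmg2*, beside 9.67% of all 21627 protein-coding promoters. For the core, the base and the chaperones, the promoter with a match whose gene had the smallest unadjusted p for TNF against PBS is shown, 5′ to 3′ on the strand of the gene and ending at the base before the start site, with the ARE letters in capitals. Bases are from chr14:45566965-45567214 (+ strand) for *Psmc6*, a base ATPase, chr11:70415933-70416182 (+ strand) for *Psmb6*, a catalytic subunit, and chr5:123366003-123366252 (+ strand) for *Psmd9*, an assembly chaperone. None of the 3 stretches overlapped an annotated exon.
Psmc6: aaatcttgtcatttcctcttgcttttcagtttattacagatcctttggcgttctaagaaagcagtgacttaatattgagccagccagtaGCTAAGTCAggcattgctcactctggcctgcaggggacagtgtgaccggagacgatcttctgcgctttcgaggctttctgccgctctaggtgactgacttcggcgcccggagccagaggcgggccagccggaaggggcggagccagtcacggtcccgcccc
Psmb6: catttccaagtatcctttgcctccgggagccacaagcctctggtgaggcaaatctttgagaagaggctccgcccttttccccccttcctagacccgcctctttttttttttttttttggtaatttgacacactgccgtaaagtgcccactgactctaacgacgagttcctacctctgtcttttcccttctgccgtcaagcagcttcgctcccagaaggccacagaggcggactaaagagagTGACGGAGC
Psmd9: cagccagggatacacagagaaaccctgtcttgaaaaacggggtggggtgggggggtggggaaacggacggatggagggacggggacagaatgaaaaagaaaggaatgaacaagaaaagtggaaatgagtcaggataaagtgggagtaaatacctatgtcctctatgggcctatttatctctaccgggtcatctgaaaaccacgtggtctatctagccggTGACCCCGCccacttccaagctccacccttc

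The match lies on the opposite strand in *Psmc6* and on the gene's own strand in *Psmb6* and *Psmd9*. Its first base was 161 bases before the start in *Psmc6*, 31 in *Psmd9* and 9 in *Psmb6*. The letters TTCNNNGAA, to which interferon-activated STAT factors bind, were present in 4 promoters (*Psmc6*, *Psmd1*, *Psmd3*, *Psmg1*; 8.89%, beside 7.73% of all promoters), and CCAAT in 18 (40.0%, beside 36.5%). CCAAT was present in 9 of the 16 core promoters. The promoters of *Psmb8*, *Psmb9* and *Psmb10* held none of the 3 motifs in this window. A match is a description of the letters and not of binding.

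Total counts were between 12747484 and 17039511 per library. The sum of 10 PC markers (*Lyz1*, *Mmp7* and others) made up 34.0% to 52.0% of all counts. TNF replicate 1 stood apart from its group. Across genes, its log2 CPM (counts scaled to a common library size) correlated with those of TNF replicates 2 and 3 at 0.869 and 0.862, below its values with the PBS libraries (0.921 to 0.936), while TNF replicates 2 and 3 correlated at 0.937. It had the highest PC marker share (52.0%). Its stem cell markers (*Lgr5*, *Olfm4* and 3 others) took 0.369% of counts, above every other library. They took 0.268% to 0.317% in PBS, and 0.105% and 0.0698% in TNF replicates 2 and 3. The 9 enterocyte markers took 0.0264% of the counts of TNF replicate 1, 0.0264% to 0.0334% in PBS, and 0.00945% and 0.00607% in TNF replicates 2 and 3. Values are therefore given with and without this library. *Cdh5*, *Hba-a1* and *Hbb-bs*, markers of endothelial and red blood cells, had 0 counts in all libraries, and the endothelial marker *Pecam1* was at 0.391 CPM in TNF replicate 2 and 0 in the others. In such bulk samples, fewer cells of a type and less RNA per cell cannot be told apart.

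Most genes of the 20S core, the 19S particle and PA28 lay above all PBS libraries in TNF replicates 2 and 3. In TNF replicate 1 fewer of the 19S and PA28 genes did, and with library size alone as the scale fewer of the core genes as well. With all 6 libraries no gene passed the edgeR test. Of the 45 genes, 43 had enough counts to be tested, and 40 of these had a positive log2 fold change, with a median of 0.68. Among all 13026 genes tested, 50.0% had a positive value and the median was 0.00. In 27 of the 43, all 3 TNF libraries lay above all 3 PBS libraries, beside 9.07% of all genes tested, and none had the opposite order, beside 7.82%. An unadjusted p under 0.05 (edgeR quasi-likelihood test) was reached by 29 genes in the higher direction, beside 8.25% of all genes, and by 0 in the lower, beside 4.0%. At a Benjamini-Hochberg adjusted p under 0.05 there were 0 calls, both among the 43 and among all genes (0%), and the adjusted p of the 43 lay between 0.270 and 0.941. DESeq2 on the same 6 libraries called 5 higher (*Psma3*, *Psma5*, *Psma6*, *Psma7* and *Psme2*), beside 1.58% of all genes, and none lower, beside 0.276%.

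Without TNF replicate 1, the edgeR test called 31 of the 43 higher, beside 9.1% of 13660 genes tested, and 1 lower (*Psmg1*), beside 5.4%. The median was then 0.83. TNF replicate 1 was singled out by its likeness to the PBS libraries, so leaving it out favours calls between the groups. Adjusted p values of that fit, here and below, describe the libraries left and are not a valid test of TNF against PBS. With all 6 libraries kept but weighted by their quality in limma-voom, where TNF replicate 1 got a weight of 0.331, 30 were higher, beside 7.06% of genes, and none lower, beside 4.47%. All of these 30, and all 5 of DESeq2, were among the 32 called without TNF replicate 1. The fits share libraries, and the weighted one gives TNF replicate 1 the least weight, so this overlap is not independent support.

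The summed expression of the 43 genes showed the same order. The PBS libraries 1 to 3 had 1750, 1660 and 1800 CPM, and the TNF libraries in the same order had 2130, 3030 and 3520 CPM. All TNF libraries lay above all PBS libraries, with TNF replicate 1 nearest to them. CPM here are scaled by TMM (trimmed means of log ratios), and the place of TNF replicate 1 rests on them. As plain shares of the total counts, the genes took 0.167%, 0.184% and 0.192% in PBS and 0.170%, 0.363% and 0.322% in TNF, so that TNF replicate 1 lay within the PBS range. With library size alone as the scale, the groups did not overlap for 7 of the 43 genes, beside 3.32% of all genes, and 11 were higher at an unadjusted p under 0.05, beside 4.15%.

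**Figure D1:**
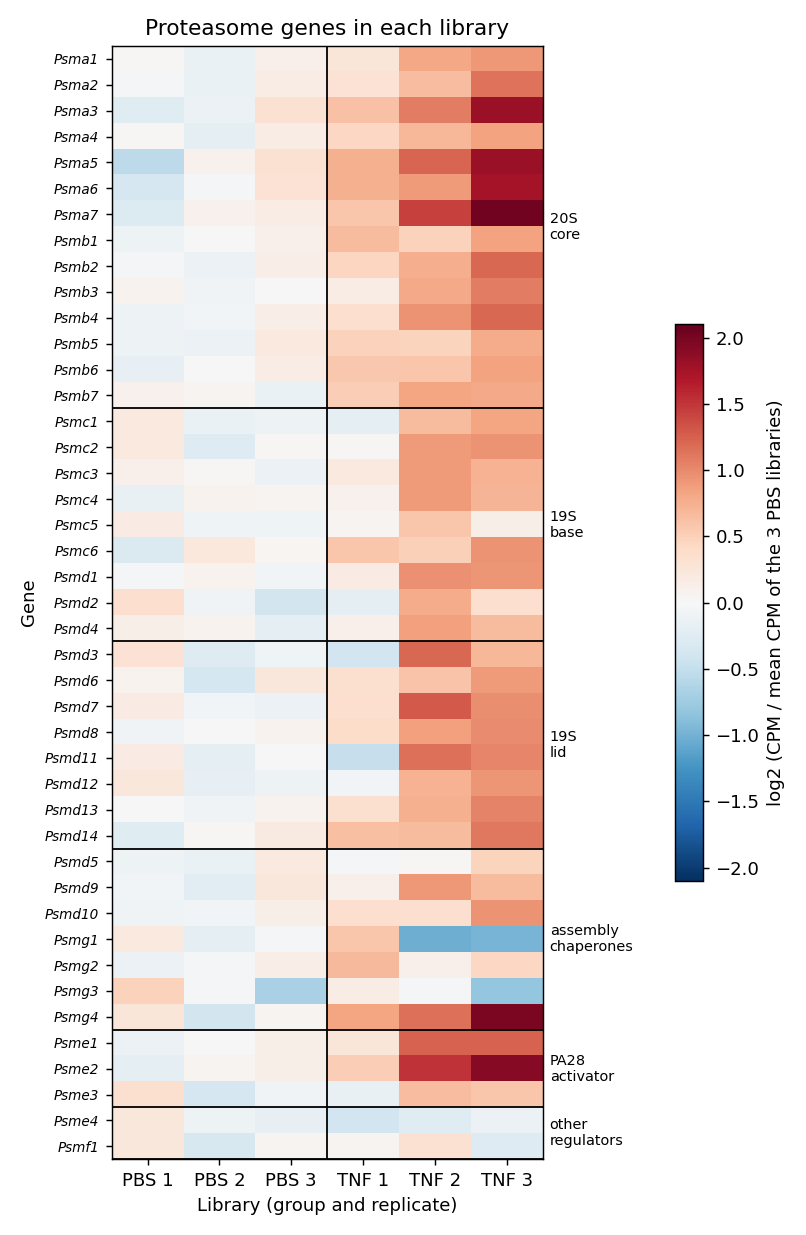
Heat map of the 43 tested proteasome genes (rows, grouped by role) in the 6 libraries (columns). Colour gives the log2 ratio of a library's CPM to the mean CPM of the 3 PBS libraries. TNF replicates 2 and 3 are red in most rows of the core, 19S and PA28 genes, TNF replicate 1 is red in all 14 core rows but not in all 19S rows, and *Psmg1* is blue in TNF replicates 2 and 3.

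On the TMM scale, the 20S core genes were the group in which TNF replicate 1 went with its own group. All 14 tested core genes were higher in each of the 3 TNF libraries than in any PBS library, beside 9.07% of all genes tested. Their log2 fold changes lay between 0.59 and 1.47 with a median of 0.73. Their median log2 ratio to the PBS mean was −0.10, −0.06 and 0.15 in the 3 PBS libraries, against 0.50, 0.80 and 1.10 for the 3 TNF libraries in replicate order. Of all genes tested, 28.2% were above all PBS libraries in TNF replicate 1. With library size alone, 4 of the 14 core genes lay above all PBS libraries there. As a plain share of counts, the core genes took 0.0791% in TNF replicate 1, within the 0.0606% to 0.0822% of PBS. In TNF replicates 2 and 3 they took 0.15% and 0.155%. Without TNF replicate 1, 13 of the 14 were called higher, beside 9.1% of all genes tested. The median of the 14 was then 0.94, and *Psmb5* had an adjusted p of 0.0579 (edgeR).

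The α ring held the largest differences. The 7 tested α genes had a median log2 fold change of 1.20 and the 7 tested β genes one of 0.72. *Psma7* (ENSMUSG00000027566, chr2:179678155-179684421), the α4 subunit, had 62.3, 80.6 and 84.8 CPM in the PBS libraries against 114, 206 and 309 CPM in the TNF libraries. TNF replicate 1 was above every PBS library and well below the other two. The log2 fold change was 1.47 (SE 0.35, adjusted p = 0.270), and without TNF replicate 1 it was 1.78 (SE 0.24, adjusted p = 0.000761, edgeR). *Psma5*, the α5 subunit, had 12.3, 19.3 and 22.6 CPM in PBS against 30.4, 42.5 and 63.9 CPM in TNF. Again the groups did not overlap, and the log2 fold change was 1.33 (SE 0.32), or 1.57 (SE 0.27, adjusted p = 0.00308, edgeR) without TNF replicate 1. *Psma3* and *Psma6*, the α7 and α1 subunits, were next, with log2 fold changes of 1.26 (SE 0.32) and 1.20 (SE 0.31). These 4 were the α genes called by DESeq2. The other 3, *Psma1*, *Psma2* and *Psma4*, lay between 0.66 and 0.74. With library size alone, the groups did not overlap for 3 of the 7 tested α genes.

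The β genes moved less and more evenly. *Psmb2*, the β4 subunit, had 28.2, 26.4 and 31.7 CPM in PBS against 39.3, 49.0 and 66.0 CPM in TNF, a log2 fold change of 0.84 (SE 0.23). Among the 3 catalytic subunits, *Psmb5* (β5, the chymotrypsin-like site) had 21.8, 21.3 and 26.7 CPM in PBS against 32.5, 32.3 and 40.0 CPM in TNF, or 0.59 (SE 0.21) on the log2 scale. *Psmb6* (β1, the caspase-like site) had 60.1, 67.5 and 75.1 CPM in PBS against 100, 102 and 121 CPM in TNF, or 0.67 (SE 0.20). *Psmb7* (β2, the trypsin-like site) had 41.1, 40.0 and 35.0 CPM in PBS against 55.6, 68.9 and 66.9 CPM in TNF, or 0.72 (SE 0.19). On the TMM scale, TNF replicate 1 was close to the other TNF libraries or a little below them in these 3 genes, and the groups did not overlap. With library size alone, the groups did not overlap for 1 of the 7 tested β genes, *Psmb1*. Without TNF replicate 1 the log2 fold changes were 1.02 (*Psmb2*), 0.65 (*Psmb5*), 0.74 (*Psmb6*) and 0.83 (*Psmb7*). The highest β value was that of *Psmb4*, the β7 subunit, at 0.87 (SE 0.25). The 2 tissue-restricted core genes, *Psmb11* of the thymus proteasome and *Psma8* of the testis proteasome, had 0 counts in every library and were not tested. With 3 counts taken as the limit, the depth of a library would leave a level below 0.146 to 0.255 CPM unseen, for counting error only.

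**Figure D2:**
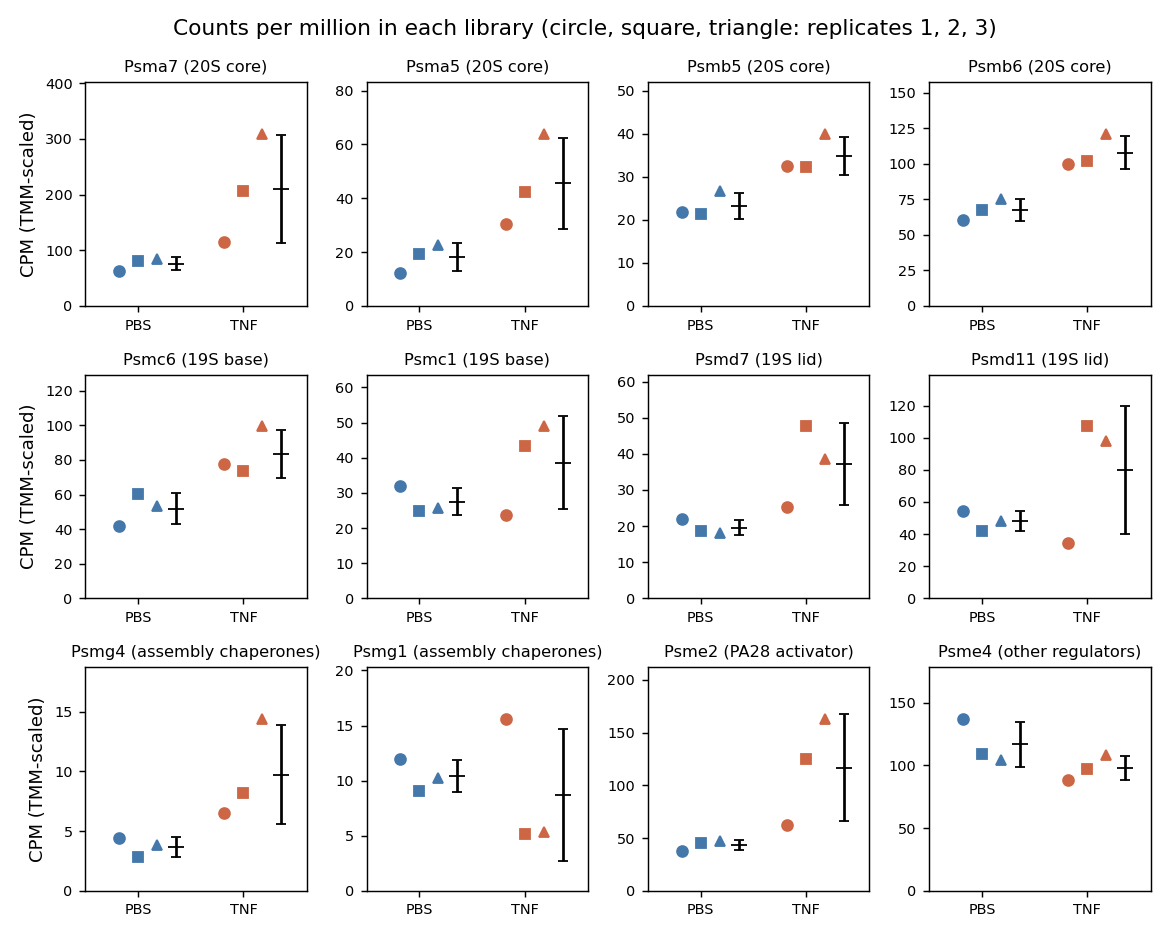
CPM on TMM-scaled library sizes (y axis, from 0) in the 3 PBS and 3 TNF libraries for 12 proteasome genes. Each point is a library, and the black line and bar are the group mean and SD. The groups are apart for *Psma7*, *Psma5*, *Psmb5*, *Psmb6*, *Psmc6*, *Psmd7*, *Psmg4* and *Psme2*, while TNF replicate 1 lies among or below the PBS libraries for *Psmc1* and *Psmd11* and above them for *Psmg1*.

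The 19S base and lid genes were higher in TNF replicates 2 and 3, and in TNF replicate 1 only a part of them were. All 17 had a positive log2 fold change, between 0.28 and 0.93, and in 16 of 17 both TNF replicates 2 and 3 lay above all PBS libraries. In TNF replicate 1, 9 of the 17 lay above all PBS libraries (28.2% of all genes tested), 5 within and 3 below. With library size alone, 1 of the 17 lay above all PBS libraries there, and the groups did not overlap for 1. As a plain share of counts, the 17 genes took 0.0629% in TNF replicate 1 and 0.072% to 0.0756% in PBS. Without TNF replicate 1, 15 of the 17 were called higher, beside 9.1% of all genes tested. *Psmc5* and *Psmd2*, 2 base genes, did not pass (adjusted p = 0.237 and 0.127, edgeR).

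Of the 9 base genes, 4 did not overlap between the groups (*Psmc3*, *Psmc4*, *Psmc6* and *Psmd1*), beside 9.07% of all genes tested. With library size alone, this held for 0 of the 9. The median log2 fold change was 0.61 for the base. Its median ratio to the PBS mean was 0.12, 0.02 and −0.09 in PBS and 0.09, 0.86 and 0.73 in TNF, so that TNF replicate 1 lay within the PBS range. *Psmc6*, the Rpt4 ATPase, whose promoter is printed above, had 42.1, 60.3 and 53.3 CPM in PBS against 77.8, 73.6 and 99.4 CPM in TNF. It was the base gene with the smallest unadjusted p, at a log2 fold change of 0.69 (SE 0.22), and TNF replicate 1 was as high there as TNF replicate 2. *Psmd1*, the scaffold subunit Rpn2, had 44.5, 47.7 and 43.5 CPM in PBS against 51.2, 88.1 and 86.2 CPM in TNF, or 0.73 (SE 0.24). *Psmc3*, the Rpt5 ATPase, had 56.8, 53.7 and 48.5 CPM in PBS against 61.2, 98.1 and 87.9 CPM in TNF, or 0.64 (SE 0.23). In both, TNF replicate 1 was above the PBS libraries by a small margin. Without it the log2 fold changes of *Psmc6*, *Psmd1* and *Psmc3* were 0.75, 0.96 and 0.83. *Psmc1*, the Rpt2 ATPase, had 31.9, 24.9 and 25.7 CPM in PBS against 23.7, 43.3 and 48.9 CPM in TNF, with TNF replicate 1 the lowest of all 6. Its log2 fold change was 0.49 (SE 0.28), and 0.76 (SE 0.20, adjusted p = 0.0247, edgeR) without that library.

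Of the 8 lid genes, 5 did not overlap between the groups, beside 9.07% of all genes tested. With library size alone, this held for 1 of the 8. The median log2 fold change was 0.73. Without TNF replicate 1, all 8 were called higher (median 0.93), beside 9.1% of all genes tested. *Psmd14*, the Rpn11 deubiquitinase, had 42.5, 51.4 and 57.8 CPM in PBS against 78.0, 80.4 and 108 CPM in TNF, or 0.81 (SE 0.22) on the log2 scale. *Psmd7*, the Rpn8 partner of Rpn11, had 21.9, 18.7 and 18 CPM in PBS against 25.2, 47.6 and 38.7 CPM in TNF. At 0.93 (SE 0.26) it had the highest log2 fold change of the 19S genes, and it was 1.16 (SE 0.20, adjusted p = 0.00328, edgeR) without TNF replicate 1. *Psmd8*, the Rpn12 subunit, had 50.0, 52.9 and 55.9 CPM in PBS against 69.3, 96.2 and 105 CPM in TNF, or 0.77 (SE 0.22). *Psmd12*, the Rpn5 subunit, had 29.4, 22.1 and 23.1 CPM in PBS against 24.0, 41.1 and 47.0 CPM in TNF, with TNF replicate 1 among the PBS libraries and a log2 fold change of 0.59 (SE 0.27). Without TNF replicate 1, *Psmd14*, *Psmd8* and *Psmd12* had 0.92, 0.95 and 0.84. *Psmd11*, the Rpn6 subunit that braces the lid against the core, was outside the rule for named genes and is given because TNF replicate 1 was the furthest below the PBS mean there among the 19S genes. It had 54.5, 41.7 and 48.3 CPM in PBS against 34.3, 107 and 98.0 CPM in TNF. Its log2 fold change was 0.73 (SE 0.37), and 1.11 (SE 0.20, adjusted p = 0.00353, edgeR) without that library.

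The core and the 19S genes could also be compared within a library, where that library's own scaling factor cancels. The factors of the PBS libraries still enter the PBS mean of each gene. The median log2 ratio of the 14 core genes minus that of the 17 19S genes was −0.22, 0.01 and 0.21 in PBS and 0.39, −0.06 and 0.18 in TNF. The value of TNF replicate 1 was the highest of the 6, and the other 2 TNF libraries lay within the PBS range. The groups overlapped.

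**Figure D3:**
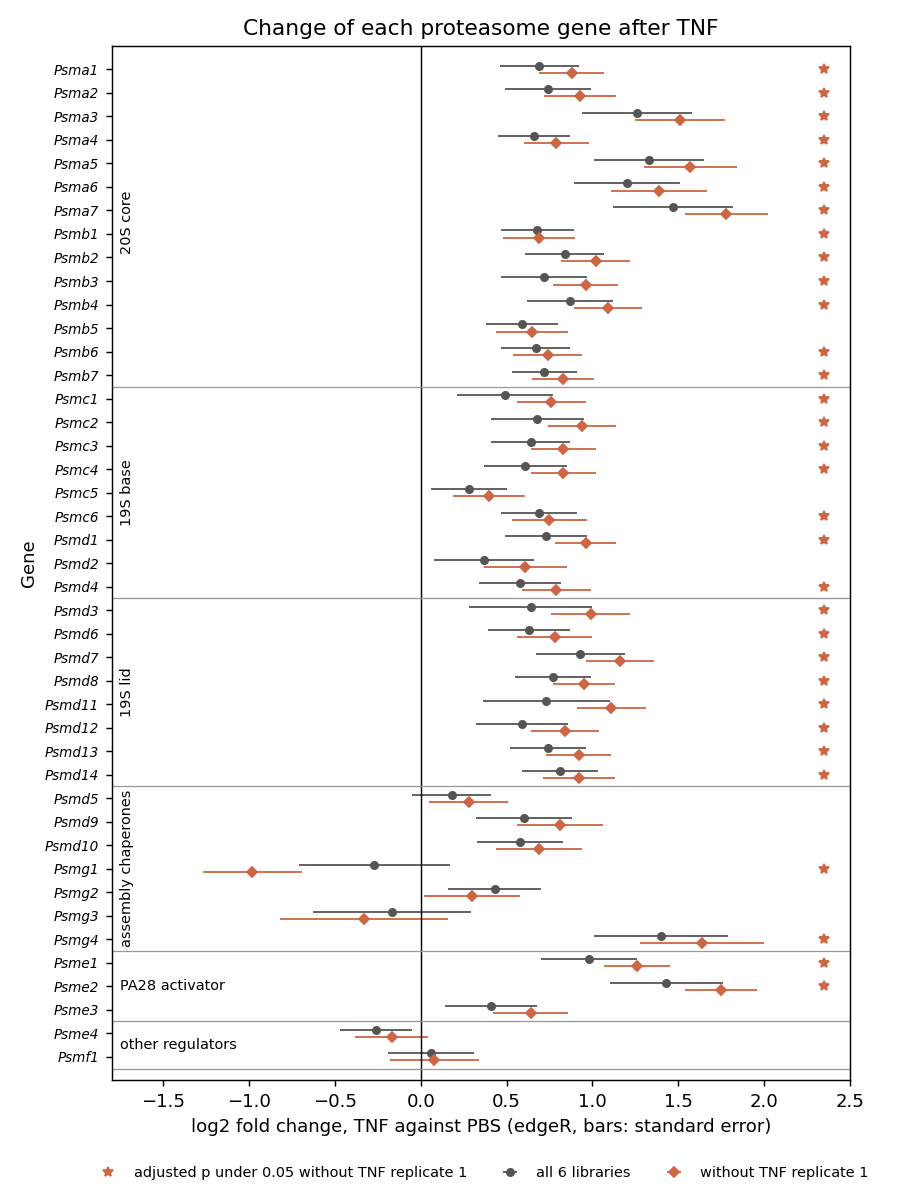
Log2 fold change of TNF against PBS (x axis) for the 43 tested proteasome genes (y axis, grouped by role) from edgeR, with all 6 libraries (grey) and without TNF replicate 1 (orange). Bars are standard errors, and stars mark the 32 genes past an adjusted p of 0.05 without TNF replicate 1. With all 6 libraries no gene passed.

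All 3 PA28 genes were above every PBS library in TNF replicates 2 and 3. Without TNF replicate 1, the edgeR test called 2 of them higher, beside 9.1% of all genes tested. *Psme1* and *Psme2* encode the α and β subunits of the heteroheptameric PA28 that works with the immunoproteasome, and *Psme3* encodes the nuclear PA28γ. *Psme2* (ENSMUSG00000079197, chr14:55824895-55829173) had 37.9, 45.3 and 47.2 CPM in PBS against 62.3, 125 and 163 CPM in TNF. The groups did not overlap, and the log2 fold change was 1.43 (SE 0.33, adjusted p = 0.270), or 1.75 (SE 0.21, adjusted p = 0.000335, edgeR) without TNF replicate 1. *Psme1*, which lies 2860 bases from *Psme2* on chromosome 14 (chr14:55815190-55822034), had 42.3, 46.2 and 50.1 CPM in PBS against 55.1, 109 and 109 CPM in TNF. Its log2 fold change was 0.98 (SE 0.28), or 1.26 (SE 0.19, adjusted p = 0.00126, edgeR) without TNF replicate 1. In both genes TNF replicate 1 was nearer to the PBS libraries than to the other TNF libraries. With library size alone as the scale, 0 of the 3 PA28 genes lay above all PBS libraries in TNF replicate 1, and the groups overlapped. As a plain share of counts, the 3 genes took 0.0126% in TNF replicate 1 and 0.0132% to 0.015% in PBS. *Psme3*, on chromosome 11, had 57.2, 35.2 and 43.1 CPM in PBS against 40.8, 71.1 and 68.0 CPM in TNF. Its groups overlapped through TNF replicate 1, and the log2 fold change was 0.41 (SE 0.27), or 0.64 (SE 0.22, adjusted p = 0.0796, edgeR) without it. *Psme2b*, a near copy of *Psme2* whose shared reads may have been split, had 23, 21 and 22 counts in PBS and 42, 85 and 89 in TNF, beside 526 to 2547 counts of *Psme2*.

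Neither of the 2 other regulators passed the test in any fit used. *Psme4*, the PA200 activator, had 137, 109 and 104 CPM in PBS against 88.5, 97.3 and 108 CPM in TNF, a log2 fold change of −0.26 (SE 0.21, adjusted p = 0.656, edgeR). *Psmf1*, the PI31 regulator of proteasome assembly and transport, had 21.1, 14.3 and 18.6 CPM in PBS against 18.8, 22.5 and 14.9 CPM in TNF, or 0.06 (SE 0.25, adjusted p = 0.941, edgeR). Both groups overlapped in both genes, and neither passed without TNF replicate 1 (adjusted p = 0.658 and 0.881, edgeR).

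The assembly chaperones differed among themselves more than the subunit groups. The median log2 fold change of the 7 was 0.43, with a range from −0.27 to 1.40. In the higher direction, 2 of the 7 did not overlap between the groups (*Psmg4* and *Psmd10*), beside 9.07% of all genes tested. *Psmg4*, which with *Psmg3* helps the α ring to form, had 4.40, 2.80 and 3.82 CPM in PBS against 6.54, 8.22 and 14.4 CPM in TNF. Its log2 fold change was 1.40 (SE 0.39), and 1.64 (SE 0.36, adjusted p = 0.0116, edgeR) without TNF replicate 1. Its partner *Psmg3* had 5.77, 4.0 and 2.57 CPM in PBS against 4.59, 4.06 and 2.34 CPM in TNF, with the groups fully mixed.

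*Psmg1* (ENSMUSG00000022913, chr16:95778481-95792202), which forms the other α-ring chaperone with *Psmg2*, was the one gene called lower in the fit without TNF replicate 1. It had 12.0, 9.08 and 10.2 CPM in PBS against 15.6, 5.14 and 5.31 CPM in TNF. TNF replicate 1 was the highest of all 6 libraries and TNF replicates 2 and 3 were the lowest. The log2 fold change was −0.27 (SE 0.44, adjusted p = 0.835) with all libraries and −0.98 (SE 0.29, adjusted p = 0.0474, edgeR) without TNF replicate 1, and the quality-weighted fit did not call it. This call thus rests on leaving out 1 library. Its partner *Psmg2* had 7.21, 7.68 and 8.60 CPM in PBS against 12.6, 8.46 and 10.6 CPM in TNF, a log2 fold change of 0.43 (SE 0.27). The base chaperones *Psmd5*, *Psmd9* and *Psmd10* had log2 fold changes of 0.18, 0.60 and 0.58, and none passed without TNF replicate 1. *Psmd10*, also known as gankyrin, had 10.4, 10.6 and 12.1 CPM in PBS against 14.1, 14.0 and 21.3 CPM in TNF, and *Psmd5* had 15.4, 15.0 and 19 CPM in PBS against 16.2, 16.8 and 22.7 CPM in TNF.

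The inducible subunits take the places of the constitutive catalytic ones, so their ratio within a library was compared, per base of the canonical transcript. *Psmb8* had 8.87, 13.8 and 11.2 CPM in PBS against 12.7, 59.0 and 49.0 CPM in TNF. The log2 ratio of *Psmb8* to *Psmb5* was −1.29, −0.62 and −1.26 in PBS and −1.36, 0.87 and 0.29 in TNF. *Psmb8* was thus below *Psmb5* in all PBS libraries and in TNF replicate 1, and above it in TNF replicates 2 and 3. The mean was −1.06 ± 0.38 (SD, n = 3) in PBS and −0.07 ± 1.16 (SD, n = 3) in TNF, and the difference of 0.99 had p = 0.4 in a two-sided exact permutation test, whose smallest possible p with 3 libraries a group is 0.1. Over left-out libraries the difference ran from 0.52 (without TNF replicate 2) to 1.64 (without TNF replicate 1).

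For *Psmb10* to *Psmb7* the log2 ratio was −0.75, −0.73 and −0.89 in PBS and −0.99, −0.03 and −0.06 in TNF, so that TNF replicate 1 was again the lowest. The difference was 0.43 (p = 0.4, exact permutation test), and it was 0.74, 0.26 and 0.28 without TNF replicates 1, 2 and 3 in turn. *Psmb10* itself had 27.7, 27.3 and 21.4 CPM in PBS against 31.6, 76.6 and 72.5 CPM in TNF. *Psmb9*, with 6.85, 6.81 and 8.52 CPM in PBS against 10.9, 14.5 and 18.2 CPM in TNF, stayed far below *Psmb6* in every library. The log2 ratio of *Psmb9* to *Psmb6* was −3.51, −3.69 and −3.52 in PBS and −3.58, −3.19 and −3.12 in TNF, a difference of 0.27 (p = 0.3, exact permutation test), or 0.42, 0.22 and 0.18 without TNF replicates 1, 2 and 3 in turn. After adjustment over the 3 pairs each p was 0.4. With all 6 libraries, edgeR called none of the 3 inducible genes. DESeq2 called *Psmb8* and *Psmb10* higher, beside 1.58% of all genes, and the weighted limma-voom fit called all 3 higher, beside 7.06%. All 3 passed the edgeR test without TNF replicate 1, beside 9.1% of all genes in the higher direction. Their log2 fold changes were then 2.28 (*Psmb8*), 1.16 (*Psmb9*) and 1.57 (*Psmb10*). In the same fit *Psma7* and *Psme2*, at 1.78 and 1.75, lay between *Psmb10* and *Psmb8*.

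**Figure D4:**
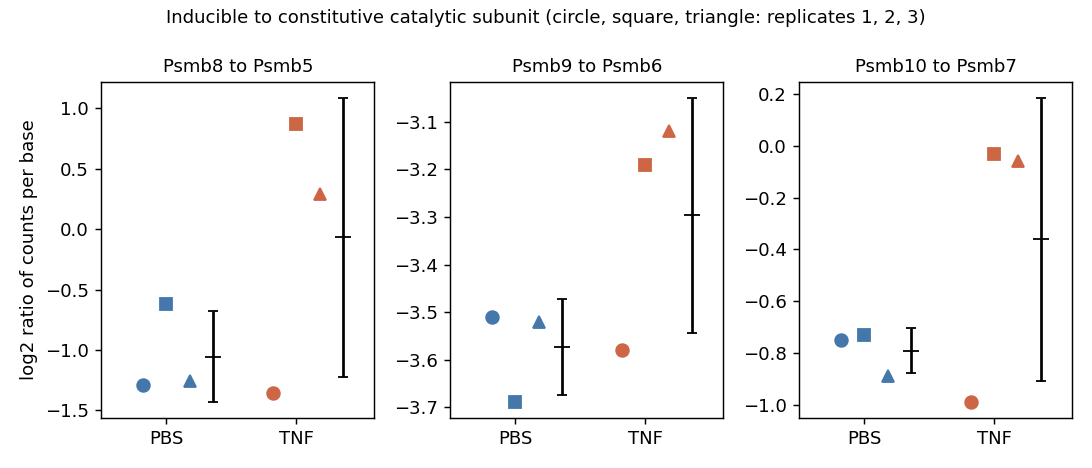
Log2 ratio of counts per base of each inducible catalytic subunit to its constitutive counterpart (y axis, a separate scale in each panel) in the 3 PBS and 3 TNF libraries. Points are libraries, and the black line and bar are the mean and SD. TNF replicate 1 lies within or below the PBS libraries in all 3 panels, and TNF replicates 2 and 3 lie above them.

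Levels of different genes were compared per transcript length, as TPM, which is the count per base of the canonical transcript brought to 1 common total per library. In PBS, the median core gene was at 25.1 TPM, the base at 20.8, the lid at 19.2, and the chaperones at 5.38 TPM. By canonical length *Psma7* was the most abundant at 75.7 ± 19 TPM (SD, n = 3), followed by *Psma6* at 62.1 ± 19 TPM and *Psmb6* at 61.1 ± 12.3 TPM. *Psma7* was above both others in every PBS library, while the order of *Psma6* and *Psmb6* changed between libraries. The lowest tested core gene, *Psmb2*, was at 6.67 ± 0.998 TPM. The highest and lowest 19S levels were 31.9 ± 4.90 TPM for *Psmd8* and 9.64 ± 0.209 TPM for *Psmc1*. In the chaperone group, levels ran from 3.49 TPM (*Psmd5*) to 9.2 TPM (*Psmg1*). The median log2 TPM of the core exceeded that of the 19S genes by 0.36 ± 0.158 (SD, n = 3) in PBS.

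These levels depend on the length taken. The canonical transcripts of *Psmb2* (4019 bases), *Psme1* (4227) and *Psme3* (4376) are long beside their coding parts of 603, 747 and 762 bases. With coding length, the highest core gene was *Psmb1* (67.9 TPM, against 55.0 for *Psma7*) and the lowest *Psma5* (13.6 TPM), the core exceeded the 19S genes by 1.07, and the 3 PA28 genes, at 10.2, 42.2 and 9.44 TPM for *Psme1*, *Psme2* and *Psme3* by canonical length, came to 33.2, 32.6 and 31.2 TPM. By coding length the partners *Psme1* and *Psme2* were thus at nearly the same level in PBS.

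Of 22 other genes of the pathway, 21 were tested and *Paaf1* was not analysed here. They included ubiquitin receptors, deubiquitinases and regulators of proteasome expression, and they differed less than the subunit genes. Their median log2 fold change was 0.26, 13 of the 21 had a positive value, beside 50.0% of all genes tested, and 4 did not overlap between the groups in the higher direction, beside 9.07%. With all 6 libraries none passed in edgeR, and 5 were higher at an unadjusted p under 0.05, beside 8.25% of all genes, and none lower. DESeq2 called 1 higher (*Pomp*), beside 1.58% of all genes. The weighted limma-voom fit called 4 higher (*Pomp*, *Sem1*, *Zfand2a* and *Nfe2l2*), beside 7.06%, and neither fit called any lower. Without TNF replicate 1, edgeR called 7 higher, beside 9.1% of all genes, and 0 lower, beside 5.4%. The clearest was *Pomp*, the maturation factor of the core, with 32.0, 34.0 and 44.0 CPM in PBS against 56.2, 108 and 106 CPM in TNF. Its log2 fold change was 1.29 (SE 0.28, adjusted p = 0.270, edgeR) and it passed in DESeq2 (adjusted p = 0.00615) and without TNF replicate 1 (1.56, adjusted p = 0.000577, edgeR). *Nfe2l1*, the activator of proteasome genes, had 53.7, 46.7 and 57.2 CPM in PBS against 36.6, 98.2 and 80.6 CPM in TNF. It was lowest in TNF replicate 1 and passed only in the fit without it (0.79, SE 0.20, adjusted p = 0.0211, edgeR), and not in the weighted fit or DESeq2. *Adrm1*, the ubiquitin receptor Rpn13, had 23.8, 17.5 and 18.1 CPM in PBS against 18.5, 37.0 and 29.6 CPM in TNF, with TNF replicate 1 among the PBS libraries, and without it the log2 fold change was 0.77 (SE 0.22, adjusted p = 0.0376, edgeR).

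*Sem1*, the smallest 19S lid component, was high in all TNF libraries, with 21.6, 17 and 12.4 CPM in PBS against 29.9, 33.9 and 36.3 CPM in TNF. *Usp14*, a deubiquitinase of the 19S particle, had 30.2, 26.4 and 31.7 CPM in PBS against 29.1, 47.7 and 44.8 CPM in TNF. Without TNF replicate 1 their log2 fold changes were 1.06 (adjusted p = 0.0138) and 0.67 (adjusted p = 0.0359, edgeR). *Zfand2a*, which encodes a stress-induced proteasome-binding protein, was also called without TNF replicate 1, at a log2 fold change of 1.39 in that fit. *Nfe2l2*, which encodes NRF2, passed in the weighted fit alone (0.68, adjusted p = 0.0349, limma-voom).

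Marker levels of several cell types also differed between the libraries. The share of counts of the 10 PC markers was 43.0% to 46.4% in PBS, 52.0% in TNF replicate 1, and 34.0% and 41.7% in TNF replicates 2 and 3. Summed CPM of the 6 goblet cell markers was 4780 to 5070 in PBS, 4830 in TNF replicate 1, and 3930 and 4170 in TNF replicates 2 and 3. Summed CPM of the 9 enterocyte markers was 275 to 304 in PBS, 331 in TNF replicate 1, and 78.8 and 66.4 in TNF replicates 2 and 3. Summed CPM of the 5 stem cell markers was 2510 to 3070 in PBS, 4630 in TNF replicate 1, and 872 and 763 in TNF replicates 2 and 3. The 6 immune cell markers summed to 21.6 to 53.3 CPM over all libraries. The 5 tuft cell markers took 0.0321% to 0.128% and the 6 enteroendocrine markers 0.00441% to 0.0121% of the counts of a library. The part of these markers in the proteasome values was not tested.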

How the data were processed

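RNA of sorted PCs was sequenced on an Element AVITI (single-end). The authors deposited raw counts per Ensembl gene, 1 column per library. Their processing notes name FastQC, Trimmomatic 0.39, STAR 2.7.10a, DESeq2 and mm39. Not given in the sources used here are the counting tool, annotation, strand setting and treatment of shared reads, so genes with near copies are uncertain. Names, positions and lengths came from GENCODE release 39, and 54749 of 55414 identifiers matched (unmatched ones held 0.0193% of counts).

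TNF was compared with PBS in edgeR 4.0.16 (R 4.3.3; filterByExpr with a minimum count of 10 and total of 15, TMM, two-sided quasi-likelihood test, group as the only term), with adjustment over all genes. The step was tested on simulated data with larger changes than those of the proteasome genes and with no library that stood apart. That check does not cover a library like TNF replicate 1. Alternatives used DESeq2 1.42.0, limma 3.58.1 (voom with sample weights), other scalings and filters, and left-out libraries. TMM factors ran from 0.7978 (TNF replicate 1) to 1.203 (TNF replicate 2). Permutation tests used scipy 1.17.1. TPM used a pseudocount of 0.1, log2 ratios of pairs one of 0.5 counts.

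Members, role groups and lists were chosen with earlier results of these data known. Values in every library are given for the PA28 genes, other regulators, catalytic subunits, untested genes, and in each role group the 2 smallest p and the highest and lowest TPM. Pathway genes called in a fit used, *Nfe2l1*, *Pomp* and *Adrm1* are named. Some single items that this rule picks are not reported here. Each library came from a different mouse. Same-numbered libraries did not deviate together (correlations −0.0141, −0.0626 and 0.0152).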

Additional observations from a re-analysis of the deposited data

How the results depend on the processing

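With all 6 libraries, 0 genes and 0 proteasome genes passed 5% under RLE factors, library size alone, a mean CPM of at least 5 and the replicate block. Replicate numbers did not pair the libraries, and the replicate block left 26 of the 43 genes at an unadjusted p under 0.05 (10.7% of all genes), against 29 without it (12.3%). Calls appeared for 690 genes and 8 proteasome genes with no low-count filter, for 242 and 5 with DESeq2, and for 1501 and 30 with limma-voom and sample weights. Leaving out each library in turn gave 0 to 1980 genes and 0 to 32 proteasome genes, and all calls came from leaving out TNF replicate 1. The cause was not tested. Coding length, chosen after seeing the data, moved the excess of core over 19S levels in PBS from 0.36 to 1.07. *Psmf1* changed sign with library size alone (−0.01) and ran from −0.13 to 0.20 over left-out libraries, and *Psmg3* from −0.46 to 0.16. The medians of the core, base, lid, chaperone and PA28 genes kept their sign under all alternatives run. The low counts of *Psmg2*, *Psmg3* and *Psmg4*, under 15 CPM in every library, limit what can be said of them. The same holds for *Psmg1*, with 105 and 66 counts in TNF replicates 2 and 3, and for the spread among the chaperones.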
